A study of Mus musculus with 24 samples.

Results

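The genes described here are 10 genes of cell junctions and of adhesion at the endothelial surface, Cdh5, Pecam1, Cldn5, Esam, Jam2, F11r, Emcn, Cd34, Cdh2 and Tjp1, out of 22282 genes measured by RNA sequencing. They were chosen by name, for their place at the contacts and the surface of endothelial cells (ECs), with earlier results of these data known. All 10 had a mean of at least 1 FPKM over the 24 libraries, as did 14964 genes in all, and these were the genes tested. FPKM counts fragments per kilobase of transcript and per fixed number of mapped fragments, so that it is a level per length.

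ECs are held together by adherens junctions, in which cadherins of neighbouring cells bind each other and are tied by catenins to actin, and by tight junctions, in which claudins and junctional adhesion molecules close the space between cells and are anchored by scaffold proteins such as ZO-1. Immunoglobulin-family molecules such as CD31 gather at the same borders and guide the passage of leukocytes, and sialomucins such as CD34 and endomucin cover the luminal surface. Mesenchymal cells build their contacts with other cadherins, N-cadherin among them.

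The study asked whether cells cultured from mouse amniotic fluid can be turned into vascular ECs with Ets transcription factors, and what Akt signalling or Sox17 adds. Each of 8 groups had 3 libraries, all from C57BL/6J mice. MACs were mouse amniotic cells from E11.5 to E13.5 embryos, cultured from mixed embryos. RACVECs were MACs transduced with lentiviruses for Etv2, Erg and Fli1, driven by a PGK promoter. They were grown in endothelial medium with an inhibitor of TGF-β signalling, and with VEGF-A during the conversion. Akt-RACVECs also received a constitutively active, myristoylated Akt, and Sox17-RACVECs received Sox17 with antibiotic selection and no Akt. Akt-MACs were MACs with the active Akt and without the Ets factor vectors. Amniotic cells were cultured in another medium, AmnioMAX, before conversion, and the medium of the sequenced MACs and Akt-MACs is not stated. The Ets factors and the medium were therefore not tested apart in RACVECs against MACs. Akt-LECs and Akt-liver ECs were adult lung and liver ECs that carried the same Akt in culture. Liver sinusoidal ECs (LSECs) were purified from liver by flow cytometry and not cultured. The cultured adult ECs were selected on VE-cadherin and CD31, the products of Cdh5 and Pecam1, and LSECs on VE-cadherin. The levels of these genes in those 3 groups were therefore fixed in part by the selection. These were bulk samples, in which fewer cells of a type and less RNA per cell cannot be told apart.

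The transduced genes were checked first. Etv2 was listed at 0 in every MAC, Akt-MAC and adult EC library, at 860, 301 and 659 FPKM in RACVECs 1 to 3 and at 127, 572 and 289 FPKM in Akt-RACVECs 1 to 3. The libraries of Sox17-RACVECs 1 and 3 held 458 and 378 FPKM, and the library labelled Sox17-RACVEC 2 was listed at 0, which goes against its label. That library also stood apart in Erg, at 387 FPKM where Sox17-RACVECs 1 and 3 had 4.49 and 0. As the converted cells received an Erg vector, the 0 in Sox17-RACVEC 3 goes against its label as well. Fli1 was at 0, 1.61 and 0.65 FPKM in MACs and at 178, 229 and 257 FPKM in RACVECs. In Akt-MACs, which received no Fli1 vector, it was at 2.36, 30.2 and 84.4 FPKM and called higher than in MACs (log2 fold change 3.67 ± 0.73, SE, limma adjusted p = 0.0109). The summed leukocyte genes described below were at 868, 9683 and 30790.0 FPKM in Akt-MACs 1 to 3, in the same order. The part of such cells in Fli1 was not tested. Erg was at 3.91, 13.8 and 0.90 FPKM in RACVECs, low for cells with an Erg vector, and at 395, 1002 and 418 FPKM in Akt-RACVECs. It was called higher with Akt (log2 fold change 6.73 ± 1.31, SE, limma adjusted p = 0.0363). Sox17 was at 5.09, 40.1 and 200.06 FPKM in the libraries labelled Sox17-RACVEC, listed at 0 in the RACVECs, and at 12.01, 83.5 and 82.2 FPKM in Akt-RACVECs, which received no Sox17 vector. Akt1, measured over all its transcripts, was at 692, 551 and 666 FPKM in MACs and at 1117, 1279 and 848 FPKM in Akt-MACs, without overlap, and the log2 difference of 0.75 ± 0.23 (SE) did not pass (limma adjusted p = 0.0918). Akt-RACVECs were also above every RACVEC in Akt1, at 0.64 ± 0.23 (SE, limma adjusted p = 0.181). Results on Sox17-RACVECs were computed with and without library 2. RACVEC 3 carries a column header that names Flk1, GFP+ and D65, which its label does not. Without it, Pecam1 and Esam in RACVECs against MACs were at 5.33 and 7.16 on the log2 scale (limma adjusted p = 0.00746 and 2.22e-05), and with Akt against RACVECs at 5.32 and 3.17 (adjusted p = 0.0483 and 0.120).

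Marker genes of other cell types moved with the groups. The summed level of 9 mesenchymal genes such as Col1a1 and Acta2 was between 3233 and 8852 FPKM in MACs, between 2988 and 6552 FPKM in RACVECs, and between 6.04 and 407 FPKM in Akt-RACVECs. It was 1289, 11.8 and 2383 FPKM in the libraries labelled Sox17-RACVEC 1, 2 and 3. None of the 9 was at 0 in every library of any of these groups. The sum of 8 endothelial genes outside the 10, such as Kdr and Tie1, was between 36.4 and 148 FPKM in MACs, between 1220.0 and 3923 FPKM in RACVECs, and between 6474 and 9292 FPKM in Akt-RACVECs. The sum of the 6 measured leukocyte genes of 7 listed was between 868 and 30790.0 FPKM in Akt-MACs and at most 14.7 FPKM in MACs. The sum of 8 epithelial genes was 52.9, 20.7 and 64.3 FPKM in MACs, 294, 131 and 1174 FPKM in RACVECs, without overlap, and at most 38.7 FPKM in Akt-RACVECs. Of these 8, Epcam, Krt8, Cldn4 and Cldn6 were listed at 0 in every RACVEC library. The sum of 5 platelet genes was 19.6, 11.2 and 75.9 FPKM in RACVECs and 168, 95.2 and 215 FPKM in Akt-RACVECs, without overlap, with Ppbp at 0 in every Akt-RACVEC library. The part of these shares in the levels below was not tested.

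**Figure D1:**
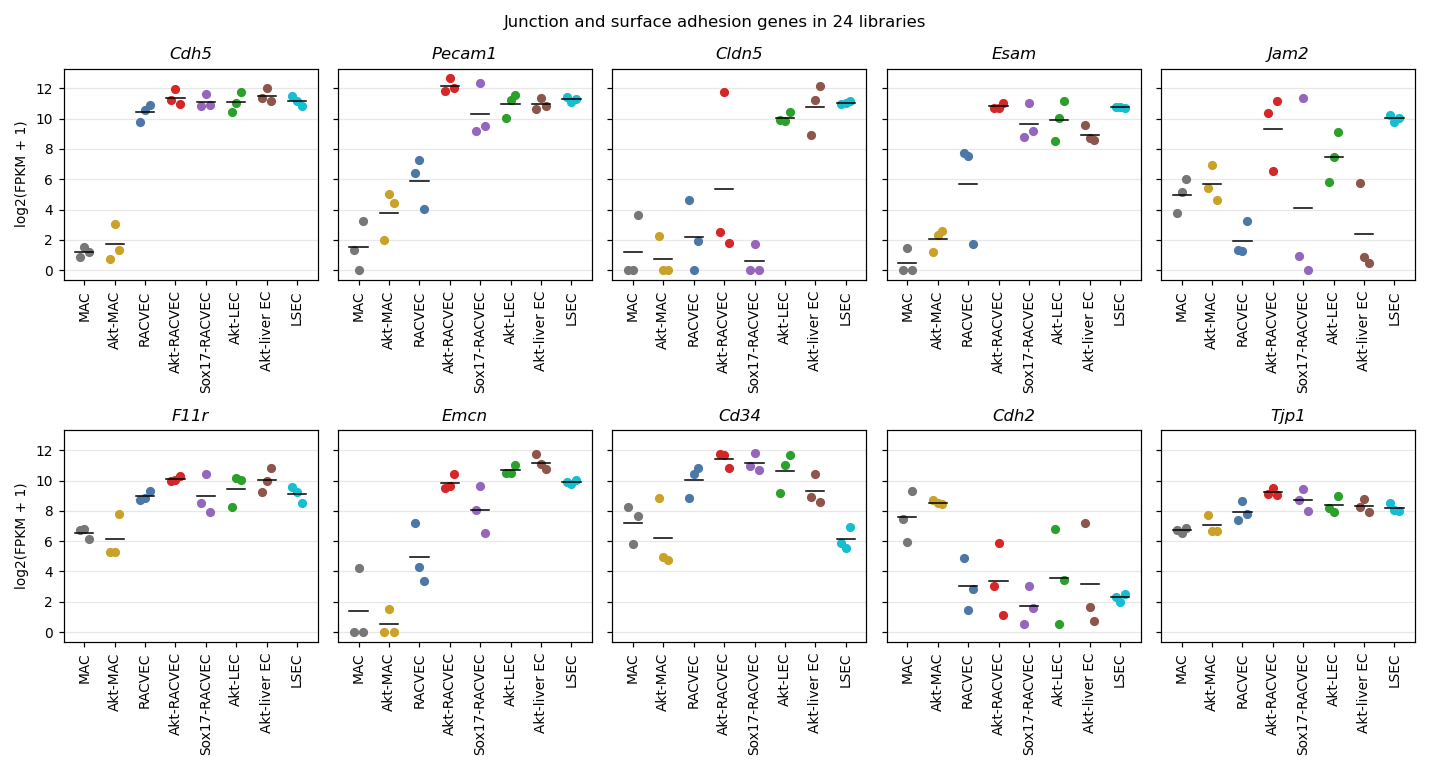
Level of each of the 10 genes, as log2(FPKM + 1), in every library (points) of the 8 groups, with the group mean of the log2 values as a bar. Cdh5 is near the floor in MACs and Akt-MACs and high in all other groups, whereas Pecam1, Esam and Emcn lie at intermediate levels in RACVECs and Cldn5 is high in 1 of the 9 libraries of RACVECs, Akt-RACVECs and Sox17-RACVECs.

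Between RACVECs and MACs, 3 of the 10 genes were called higher, Cdh5, Pecam1 and Esam, against 1.36% of all genes tested, and 0 were called lower, against 1.35% of all genes. Cdh2 was the 1 gene that had an unadjusted p below 0.05 with a log2 fold change below -1. So had 1070 of the 14964 genes tested, and 1 of 10 was near that share. To be called, a gene needed a limma adjusted p under 0.05 together with a log2 fold change above 1 or below -1. In 6 genes, Cdh5, Pecam1, Esam, F11r, Cd34 and Tjp1, every RACVEC library was above every MAC library, which held for 11.4% of all genes. The median log2 fold change over the 10 was 2.61, beside 0 over all genes tested. When Akt was added to RACVECs, 2 genes were called higher, Pecam1 and Emcn, against 0.221% of all genes. In 7 genes, Cdh5, Pecam1, Esam, Jam2, F11r, Emcn and Tjp1, every Akt-RACVEC library was above every RACVEC library, against 10.6% of all genes, and the median change was 2.28 beside 0 over all genes. With Sox17, 0 of the 10 were called higher by limma, where 0.0% of all genes were, and 3 of them, Pecam1, Esam and Emcn, had an unadjusted p below 0.05 with a log2 fold change above 1, against 1.32% of all genes. Without library 2 the counts were again 0 and 3, against 1.26% of all genes for the second. In Pecam1 and Esam every library labelled Sox17-RACVEC was above every RACVEC library, against 4.05% of all genes, or 10.5% without library 2. The median change with Sox17 was 0.95, beside -0.02 over all genes, and 0.43 beside 0 without library 2. The Akt and Sox17 comparisons share the RACVEC libraries.

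**Figure D2:**
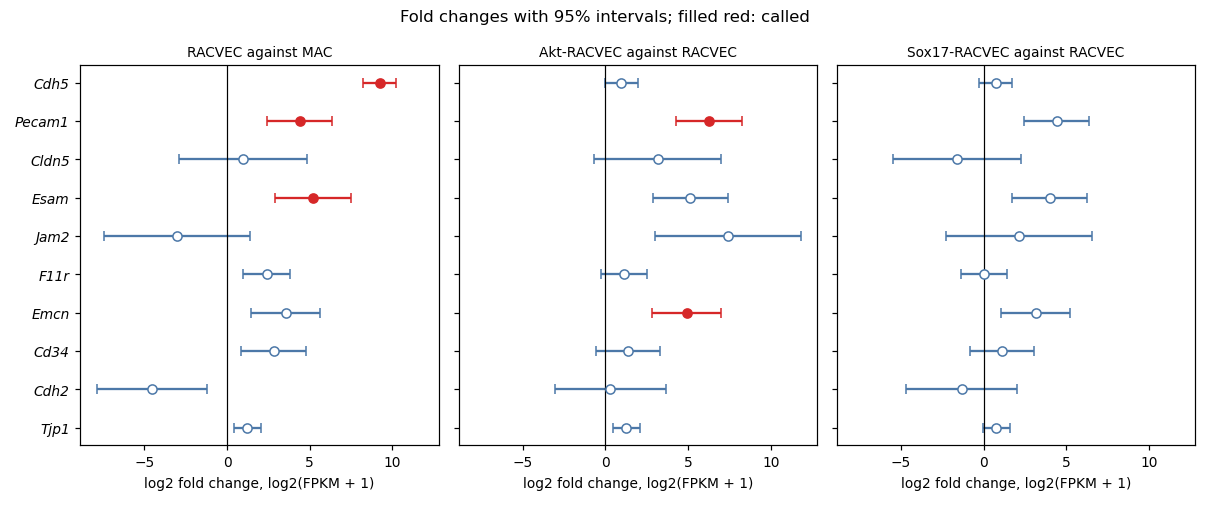
Log2 fold change of each gene on the log2(FPKM + 1) scale, with its 95% interval from the limma fit, for RACVECs against MACs, Akt-RACVECs against RACVECs and Sox17-RACVECs against RACVECs (3 libraries a group). Filled red points are called. Cdh5 stands highest in the first panel at 9.22, and Pecam1 and Emcn are the called genes of the second.

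Cdh5 (VE-cadherin, chr8:106625525-106668402 on the plus strand, mm9), the cadherin of endothelial adherens junctions, was the gene with the highest fold change of the 10 in RACVECs. Its level was 0.82, 1.87 and 1.27 FPKM in MACs 1 to 3 and 863, 1531 and 1887 FPKM in RACVECs 1 to 3. The groups did not overlap, and the log2 fold change was 9.22 ± 0.48 (SE, limma adjusted p = 1.92e-09). Akt-MACs stayed at 0.66, 7.36 and 1.46 FPKM. Akt-RACVECs had 2413, 3887 and 2008 FPKM, above all RACVECs, with a log2 difference of 0.97 and a 95% interval from -0.04 to 1.99 (limma adjusted p = 0.338). In the libraries labelled Sox17-RACVEC, Cdh5 was at 1788, 3217 and 1937 FPKM, which overlapped the RACVECs. The difference was 0.72 ± 0.48 (SE, limma adjusted p = 0.857), and 0.46 without library 2. Adult ECs lay in the same range, at 1397, 2074 and 3486 FPKM in Akt-LECs, 2591, 4131 and 2295 FPKM in Akt-liver ECs and 2928, 2338 and 1805 FPKM in LSECs. Cdh5 was called in RACVECs against MACs whichever library was left out (log2 fold change between 8.98 and 9.54).

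Cdh2 (N-cadherin), the cadherin of mesenchymal and neural contacts, ran the other way. MACs had 177, 61.6 and 634 FPKM and Akt-MACs had 412, 360.46 and 350.01 FPKM, while RACVECs had 28.8, 1.75 and 6.02 FPKM. Every RACVEC library was below every MAC library, against 10.5% of all genes, at a log2 difference of -4.53 ± 1.60 (SE, limma adjusted p = 0.130), which did not pass the test. Akt-RACVECs were at 7.24, 58.6 and 1.22 FPKM and the libraries labelled Sox17-RACVEC at 0.47, 7.22 and 2.01 FPKM. Against RACVECs the differences were 0.31 ± 1.60 (SE, limma adjusted p = 1.0) with Akt and -1.33 ± 1.60 (SE, limma adjusted p = 0.997) with Sox17, the latter being -1.98 without Sox17-RACVEC 2. The first of these turned to -0.96 without Akt-RACVEC 2 and to -0.49 without RACVEC 2. Cdh2 was called lower in Akt-RACVECs than in Akt-MACs, by -5.18 ± 1.60 (SE, limma adjusted p = 0.0257), a call that was lost when any of 5 of the 6 libraries was left out (adjusted p up to 0.103). It was also called lower in Sox17-RACVECs than in MACs, at -5.86 (limma adjusted p = 0.0235), and at -6.51 (adjusted p = 0.0316) without Sox17-RACVEC 2. That call was lost without MAC 1 or 3 or Sox17-RACVEC 1 or 3 (adjusted p up to 0.0888). Adult ECs had single high libraries, at 109, 0.47 and 9.62 FPKM in Akt-LECs and 143, 2.16 and 0.63 FPKM in Akt-liver ECs, and LSECs had 4.0, 3.03 and 4.74 FPKM. Akt-LEC 1 and Akt-liver EC 1, the high libraries, had mesenchymal sums of 4170.0 and 2636 FPKM, where the other libraries of these groups had between 37.4 and 439 FPKM. The sum of the 3 neural genes Tubb3, Nes and Sox2 was 248, 179 and 1574 FPKM in MACs, of which MAC 3 was the highest as in Cdh2, and 179, 38.2 and 93.4 FPKM in RACVECs. Elsewhere the sums and Cdh2 went apart. MAC 2 had the highest mesenchymal sum of the MACs, 8852 FPKM, with the lowest Cdh2. RACVECs kept mesenchymal sums between 2988 and 6552 FPKM. Sox17-RACVECs 1 and 3 had mesenchymal sums of 1289 and 2383 FPKM and neural sums of 232 and 356 FPKM, with Cdh2 at 0.47 and 2.01 FPKM. The part of such cells in Cdh2 was not tested.

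Pecam1 (CD31, chr11:106515531-106611942 on the minus strand, mm9), an immunoglobulin-family molecule at endothelial borders, was raised in steps. MACs were at 1.47, 0 and 8.64 FPKM and RACVECs at 84.1, 155 and 15.3 FPKM. These groups did not overlap, with a log2 fold change of 4.39 ± 0.94 (SE, limma adjusted p = 0.0145). The call was lost without MAC 1 (adjusted p = 0.0513) and without RACVEC 2 (adjusted p = 0.0917). Akt-RACVECs had 3649, 6524 and 4132 FPKM, so that the lowest of them was above the highest RACVEC by more than an order of magnitude. The log2 fold change with Akt was 6.26 ± 0.94 (SE, limma adjusted p = 0.0101), and the adjusted p was 0.0566 without Akt-RACVEC 2. Akt alone gave 2.88, 30.9 and 20.9 FPKM in Akt-MACs, which overlapped the MACs, at a log2 difference of 2.28 ± 0.94 (SE, limma adjusted p = 0.256). Akt-MACs 1 to 3 also held 868, 9683 and 30790.0 FPKM of the summed leukocyte genes and 272, 713 and 222 FPKM of the summed platelet genes, and CD31 is also a molecule of leukocytes and platelets. The part of such cells in Pecam1 was not tested.

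The libraries labelled Sox17-RACVEC had 586, 5144 and 714 FPKM of Pecam1, all above the RACVECs, with library 2 at the level of the Akt-RACVECs. The log2 difference from RACVECs was 4.43 ± 0.94 (SE) with a limma adjusted p of 0.239, and 3.43 ± 0.94 with an adjusted p of 0.483 without library 2. Leaving out RACVEC 2 made it a call (5.12, adjusted p = 0.0384). Sox17-RACVECs were at -1.84 ± 0.94 (SE) against Akt-RACVECs (limma adjusted p = 0.682, or -2.83 and 0.120 without library 2). Adult ECs had 1077, 2417 and 2984 FPKM in Akt-LECs, 1576, 2648 and 1854 FPKM in Akt-liver ECs and 2778, 2233 and 2459 FPKM in LSECs.

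Esam (chr9:37335663-37345904 on the plus strand, mm9), an adhesion molecule of ECs and platelets that binds to itself across tight junctions, had its group means in the same order as Pecam1, from Akt-RACVECs at the top to MACs. MACs were at 0, 1.74 and 0 FPKM, and RACVECs at 210, 188 and 2.36 FPKM, so that RACVEC 3 was close to the MACs. The log2 fold change was 5.19 ± 1.09 (SE, limma adjusted p = 0.0126). That call was lost without MAC 1 (adjusted p = 0.0508), RACVEC 1 (0.0532) or RACVEC 2 (0.0839). Akt-RACVECs had 1694, 1679 and 2049 FPKM, all above the RACVECs, and the difference of 5.14 ± 1.09 (SE) had a limma adjusted p of 0.0511. It was 6.08 with an adjusted p of 0.0226 without RACVEC 2. The platelet sum was also higher in every Akt-RACVEC library than in the RACVECs, and in the libraries labelled Sox17-RACVEC it was 33.8, 144 and 13.99 FPKM. The part of such cells in Esam was not tested. Sox17-RACVECs, as labelled, held 431, 2115 and 581 FPKM, also all above the RACVECs. Their difference was 3.99 ± 1.09 (SE, limma adjusted p = 0.375), and 3.29 ± 1.19 (adjusted p = 0.711) without library 2. Akt-MACs were at 1.34, 4.02 and 4.99 FPKM, a log2 difference of 1.56 ± 1.09 (SE, limma adjusted p = 0.618) from MACs. Esam was at 372, 1037 and 2323 FPKM in Akt-LECs, 769, 412 and 378 FPKM in Akt-liver ECs and 1706, 1777 and 1690.4 FPKM in LSECs.

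F11r (JAM-A, chr1:173367666-173394734 on the plus strand, mm9), a junctional adhesion molecule of both epithelia and endothelia, was already present in MACs, at 105, 111 and 69.4 FPKM. RACVECs had 410, 467 and 632 FPKM, with no overlap, and a log2 difference of 2.40 ± 0.67 (SE) that did not pass (limma adjusted p = 0.0605). The epithelial sum was likewise higher in every RACVEC library than in the MACs, and lower again in the Akt-RACVECs. Its part in F11r and in Tjp1 was not tested. Akt-RACVECs had 999, 1038 and 1243 FPKM, above every RACVEC, at 1.14 ± 0.67 (SE, limma adjusted p = 0.417). Sox17-RACVECs, as labelled, scattered, at 371, 1365 and 240 FPKM, and the difference from RACVECs was 0.002, with an interval from -1.40 to 1.40 (limma adjusted p = 1.0), and -0.73 without library 2. Akt-MACs had 38.7, 37.5 and 225 FPKM. The adult ECs were between 304 and 1126 FPKM in Akt-LECs, between 617 and 1797 FPKM in Akt-liver ECs and between 373 and 758 FPKM in LSECs.

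Jam2 (JAM-B, chr16:84774368-84826173 on the plus strand, mm9), a junctional adhesion molecule of endothelial and stromal cells, had the largest standard error of the 10. MACs were at 12.4, 35.2 and 63.9 FPKM and every RACVEC library was below them, at 1.51, 1.43 and 8.51 FPKM, a log2 difference of -3.03 ± 2.10 (SE, limma adjusted p = 0.451). Akt-RACVECs had 1315, 90.2 and 2280 FPKM, all above the RACVECs. The difference of 7.39 ± 2.10 (SE) was the highest of the 10 genes in that comparison and did not pass (limma adjusted p = 0.103). The libraries labelled Sox17-RACVEC were at 0.95, 2602 and 0 FPKM, so that library 2 alone was high. The difference from RACVECs was 2.15 ± 2.10 (SE, limma adjusted p = 0.962) and turned to -1.47 ± 1.45 (adjusted p = 1.0) without library 2. Against Akt-RACVECs it was -5.24 ± 2.10 (SE, limma adjusted p = 0.570), and -8.86 ± 1.45 with an adjusted p of 0.00405 without library 2, a call in the lower direction where 1.53% of all genes had one. Akt-MACs, at 41.3, 121 and 23.97 FPKM, overlapped the MACs. Jam2 was at 54.6, 174 and 563 FPKM in Akt-LECs.

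Cldn5 (claudin-5, chr16:18776940-18778353 on the plus strand, mm9), the main claudin of endothelial tight junctions, was low in 8 of the 9 converted libraries. RACVECs were at 23.9, 0 and 2.85 FPKM and MACs at 0, 0 and 11.51 FPKM, which overlapped (log2 difference 0.98 ± 1.84, SE, limma adjusted p = 0.843, or -0.24 without RACVEC 1). Akt-RACVECs were at 4.75, 3543 and 2.40 FPKM. The difference from RACVECs of 3.17 ± 1.84 (SE, limma adjusted p = 0.412) rested on Akt-RACVEC 2, and it was -0.05 without that library. Sox17-RACVECs, as labelled, were at 0, 2.33 and 0 FPKM, with a difference from RACVECs of -1.62 ± 1.84 (SE, limma adjusted p = 0.991, or -2.19 without library 2). Akt-MACs were at 3.84, 0 and 0 FPKM. Adult ECs had 956, 927 and 1369 FPKM in Akt-LECs, 475, 2430 and 4603 FPKM in Akt-liver ECs and 1977, 2054 and 2326 FPKM in LSECs, each above every converted library except Akt-RACVEC 2.

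Tjp1 (ZO-1, chr7:72441051-72516125 on the minus strand, mm9), the scaffold that ties tight junctions to actin, had the narrowest range. MACs were at 108, 89.96 and 116 FPKM and RACVECs at 168, 400.3 and 222 FPKM, without overlap, and the log2 difference of 1.24 ± 0.39 (SE) did not pass (limma adjusted p = 0.0909). Akt-RACVECs had 558, 714 and 533 FPKM, again without overlap, at 1.27 ± 0.39 (SE, limma adjusted p = 0.117). Sox17-RACVECs, as labelled, held 414, 693 and 254 FPKM, which overlapped the RACVECs (0.76 ± 0.39, SE, limma adjusted p = 0.773, or 0.40 without library 2). Akt-MACs were at 213, 101 and 101 FPKM, and the 9 adult EC libraries between 241 and 505 FPKM. Tjp1 had 2 transcript rows. The row with fewer FPKM made up 9.58% ± 3.93 (SD, n = 3) of the gene in MACs, 20.05% ± 7.55 in RACVECs and 24.4% ± 7.89 in Akt-RACVECs. It made up 19.1% ± 8.91 in Akt-MACs, without the Ets factor vectors, and 18.06% ± 5.74 in Sox17-RACVECs as labelled. In adult ECs it was 19.01% ± 4.22 in Akt-LECs, 11.64% ± 3.19 in Akt-liver ECs and 13.82% ± 1.03 in LSECs. Differences in this share were not tested.

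Emcn (endomucin, chr3:137004031-137095149 on the plus strand, mm9), a sialomucin of capillary and venous ECs, was at 0, 17.5 and 0 FPKM in MACs and at 149, 18.2 and 9.27 FPKM in RACVECs. RACVEC 3 lay below MAC 2, and the log2 difference of 3.55 ± 1.00 (SE) did not pass (limma adjusted p = 0.0632). It was called without MAC 2 (adjusted p = 0.00280) or RACVEC 3 (0.0484). Akt-RACVECs had 723, 805 and 1373 FPKM, all above the RACVECs. The log2 fold change with Akt was 4.91 ± 1.00 (SE, limma adjusted p = 0.0423), and leaving out any library but RACVEC 1 took the adjusted p to between 0.0641 and 0.130. Akt-MACs stayed at 0, 1.87 and 0 FPKM. The libraries labelled Sox17-RACVEC held 265, 800.45 and 92.8 FPKM, of which library 3 was below RACVEC 1 (difference 3.13 ± 1.00, SE, limma adjusted p = 0.504, or 2.35 and 0.831 without library 2). Adult ECs had 1439, 1472 and 2123 FPKM in Akt-LECs, 3475, 2138 and 1711 FPKM in Akt-liver ECs and 977, 859 and 1032 FPKM in LSECs.

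Cd34 (chr1:196765015-196787486 on the plus strand, mm9), a sialomucin of vascular ECs and blood progenitors, was not particular to converted cells, since MACs held 298, 54.5 and 197 FPKM. RACVECs had 455, 1366 and 1845 FPKM, above every MAC, and the log2 difference of 2.82 ± 0.93 (SE) did not pass (limma adjusted p = 0.107). Akt-RACVECs had 3406, 3365 and 1784 FPKM, and the libraries labelled Sox17-RACVEC 1986, 3580.4 and 1690.2 FPKM. Both overlapped RACVEC 3, with differences of 1.38 ± 0.93 (SE, limma adjusted p = 0.490) and 1.129 ± 0.93 (SE, limma adjusted p = 0.927), the second being 0.81 without Sox17-RACVEC 2. Akt-MACs had 454, 30.6 and 26.4 FPKM. Among adult ECs, Cd34 was at 570, 2123 and 3287 FPKM in Akt-LECs, 473, 1373 and 390 FPKM in Akt-liver ECs and 57.0, 45.3 and 121 FPKM in LSECs.

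The promoter sequences of Cd34, Emcn and Cldn5 are shown because their levels part in the RACVECs. Cd34 was at 455 FPKM or more in all 3 libraries, Emcn was at 149 FPKM in 1 and at most 18.2 FPKM in the others, and Cldn5 was at most 23.9 FPKM. These 3 were picked after the levels were seen. Ets factors bind a core of GGAA. The sequences are the 250 bases before the transcription start in RefSeq on GRCm38.p6, on the plus strand, and capitals mark GGAA or its complement TTCC.
Cd34 (chr1:194938571-194938820): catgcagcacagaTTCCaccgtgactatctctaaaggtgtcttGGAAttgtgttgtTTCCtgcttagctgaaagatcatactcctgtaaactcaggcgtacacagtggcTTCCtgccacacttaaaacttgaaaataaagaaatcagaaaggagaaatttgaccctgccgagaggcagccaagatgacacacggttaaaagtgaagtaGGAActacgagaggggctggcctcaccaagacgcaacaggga
Emcn (chr3:137340828-137341077): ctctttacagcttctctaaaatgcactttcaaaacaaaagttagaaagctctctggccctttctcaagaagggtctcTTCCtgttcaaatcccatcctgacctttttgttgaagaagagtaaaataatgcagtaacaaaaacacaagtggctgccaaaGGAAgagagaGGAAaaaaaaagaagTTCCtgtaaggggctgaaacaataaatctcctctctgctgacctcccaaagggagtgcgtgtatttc
Cldn5 (chr16:18776597-18776846): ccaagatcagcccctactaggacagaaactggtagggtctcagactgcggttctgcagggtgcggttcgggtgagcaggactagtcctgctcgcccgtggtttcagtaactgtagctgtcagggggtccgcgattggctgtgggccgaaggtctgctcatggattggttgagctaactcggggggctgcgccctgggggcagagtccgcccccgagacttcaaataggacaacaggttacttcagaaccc

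On both strands, GGAA occurred 5 times in the Cd34 window, 4 times in that of Emcn and 0 times in that of Cldn5. F11r and Tjp1, whose windows were also matched, held 3 each. Of 32851 promoter windows of the same length, 93.4% held at least 1 GGAA and 6.55% held none, with a median of 3 matches. The longer form AGGAAG or CGGAAG, which contains GGAA, occurred once in Cd34, 2 times in Emcn, once in Tjp1 and 0 times in F11r and Cldn5, and in 39.2% of all windows. ACAAT, the core bound by Sox factors, occurred once each in Cd34 and Emcn and 0 times in the other 3, and in 27.7% of all windows. A match of letters is not a binding site, and its absence says nothing on binding elsewhere. Cdh5, Pecam1, Esam, Jam2 and Cdh2 had no window here.

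With Akt and no Ets factor vector, 0 of the 10 genes were called higher in Akt-MACs against MACs by limma, where 2.59% of all genes were called higher. Pecam1 was the 1 gene with an unadjusted p below 0.05 and a log2 fold change above 1. So had 1128 of the 14964 genes tested, and 1 of 10 was near that share. Between Akt-RACVECs and Akt-MACs, which both carry Akt, 7 of the 10 were called higher, Cdh5, Pecam1, Esam, Emcn, F11r, Cd34 and Tjp1, against 6.15% of all genes. Their log2 fold changes were 9.68 for Cdh5, 9.35 for Emcn, 8.77 for Esam, 8.37 for Pecam1, 5.22 for Cd34, 3.96 for F11r and 2.19 for Tjp1 (limma adjusted p at most 0.000993). Cdh2 was the 1 gene called lower, where 13.4% of all genes were. The Akt effect in RACVECs was then set against the Akt effect in MACs as an interaction. Of the 10 genes 0 passed by limma, where 0.00668% of all genes were called higher. An unadjusted p below 0.05 with a log2 value above 1 was found in 4 of them, and in 462 of the 14964 genes tested. The interaction was 5.80 ± 1.42 (SE, limma adjusted p = 0.102) for Emcn, 3.99 ± 1.33 (adjusted p = 0.214) for Pecam1, 3.58 ± 1.54 (adjusted p = 0.351) for Esam and 6.71 ± 2.97 (adjusted p = 0.371) for Jam2. A larger effect of Akt in RACVECs than in MACs was therefore not shown for any of the 10.

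Sox17-RACVECs were also set against the MACs, where the same 7 genes were called higher, against 3.81% of all genes, and Cdh2 lower, against 6.83%. The log2 fold changes were 9.94 for Cdh5, 9.18 for Esam, 8.81 for Pecam1, 6.68 for Emcn, 3.94 for Cd34, 2.40 for F11r and 2.00 for Tjp1, with limma adjusted p up to 0.0258. Without Sox17-RACVEC 2, F11r was lost (1.67, limma adjusted p = 0.111), and the other 7 genes were called, where 3.88% of all genes were called higher and 4.94% lower. The changes were then 9.67 for Cdh5, 8.49 for Esam, 7.82 for Pecam1, 5.90 for Emcn, 3.62 for Cd34 and 1.63 for Tjp1. F11r was also lost without MAC 1 or MAC 3 (adjusted p of 0.0572 and 0.0816). Directly against Akt-RACVECs, 0 of the 10 genes were called in Sox17-RACVECs by limma, where 0 of the 14964 genes tested were called higher and 0 lower. Cldn5 and Jam2 had an unadjusted p below 0.05 with a log2 fold change below -1, as did 417 of all genes tested. The difference for Cldn5 was -4.78 ± 1.84 (SE, limma adjusted p = 0.555), or -5.36 (adjusted p = 0.184) without Sox17-RACVEC 2, and went with Akt-RACVEC 2, the 1 high library. Without Sox17-RACVEC 2, Jam2 was called lower, where 1.53% of all genes were. Pecam1, Emcn, F11r and Cldn5 were also lower in that fit and were not called (limma adjusted p of 0.120, 0.222, 0.1445 and 0.184).

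**Figure D3:**
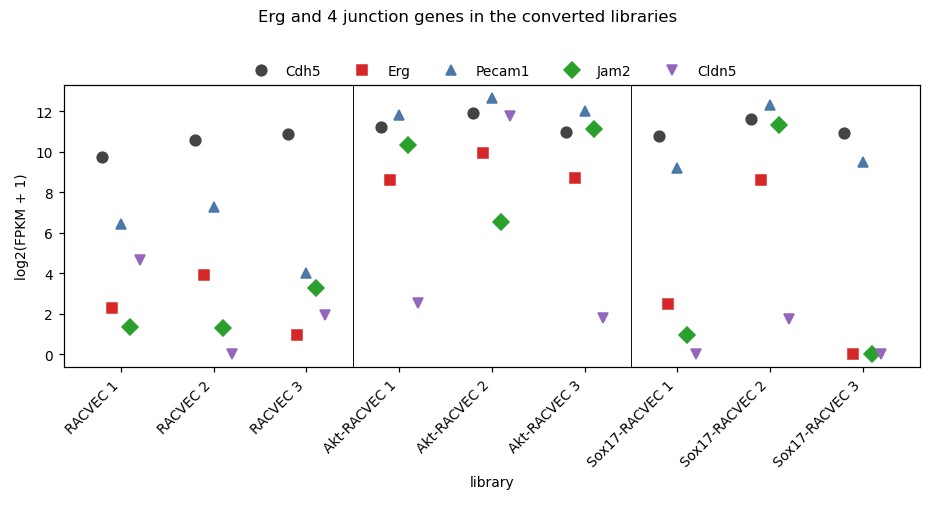
Level of Erg and of 4 junction genes, as log2(FPKM + 1), in the 9 converted libraries, 3 each of RACVECs, Akt-RACVECs and Sox17-RACVECs. Cdh5 is high in all 9, and the library labelled Sox17-RACVEC 2 lies with the Akt-RACVECs in Erg, Pecam1 and Jam2. Cldn5 is high in Akt-RACVEC 2 alone of the 9.

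The library labelled Sox17-RACVEC 2 lay nearer to the Akt-RACVECs than to the other libraries of its label in several members. Its Pecam1 of 5144 FPKM was within the Akt-RACVEC range of 3649 to 6524 FPKM, where Sox17-RACVECs 1 and 3 had 586 and 714 FPKM. Its Esam of 2115 FPKM was above the highest Akt-RACVEC at 2049 FPKM, and its Jam2 of 2602 FPKM above the highest at 2280 FPKM, where the other libraries of its label had at most 581 and 0.95 FPKM. Emcn, at 800.45 FPKM, was within the Akt-RACVEC range of 723 to 1373 FPKM. Cldn5, at 2.33 FPKM, was as low as in Sox17-RACVECs 1 and 3. In the transduced genes, its Erg of 387 FPKM was close to the lowest Akt-RACVEC at 395 FPKM, while Etv2 was listed at 0, where Akt-RACVECs had at least 127 FPKM. Its mesenchymal sum of 11.8 FPKM was also within the Akt-RACVEC range. These values were picked after they were seen, and what sets this library apart was not tested.

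Adult lung ECs gave the reference. Akt-LEC 1 held 4170, 1598 and 257 FPKM of the summed mesenchymal, leukocyte and epithelial genes. Akt-LEC 2 held 37.4, 0.75 and 9.23 FPKM of these, and Akt-LEC 3 held 117, 18.6 and 7.27 FPKM. The part of such cells in the comparisons with Akt-LECs was not tested. Against MACs, 8 of the 10 genes were called higher in Akt-LECs, against 5.95% of all genes. These were Cdh5 (log2 fold change 9.89), Esam (9.43), Pecam1 (9.43), Emcn (9.29), Cldn5 (8.84), Cd34 (3.41), F11r (2.91) and Tjp1 (1.65), with limma adjusted p of at most 0.0208. Akt-LECs were selected on the products of Cdh5 and Pecam1, so the place of these genes among the 8 was fixed in part by that selection. The calls of Cd34 and Tjp1 were lost when single libraries were left out (Cd34 without MAC 2, Akt-LEC 2 or Akt-LEC 3, limma adjusted p up to 0.0970, and Tjp1 without Akt-LEC 3, 0.0576). Jam2, at 2.48 ± 2.10 (SE, limma adjusted p = 0.461), and Cdh2, at -4.00 ± 1.60 (SE, limma adjusted p = 0.101), did not pass, and Cdh2 was called lower without Akt-LEC 1 (-5.60, adjusted p = 0.0305).

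RACVECs were called lower than Akt-LECs in 2 genes, Emcn at -5.74 ± 1.00 (SE, limma adjusted p = 0.0161) and Pecam1 at -5.04 ± 0.94 (SE, limma adjusted p = 0.0248), where 0.234% of all genes were called lower and 0.0267% higher. Either call depended on single libraries. Pecam1 was lost without Akt-LEC 2 or 3 or RACVEC 1 or 3 (limma adjusted p up to 0.156), and Emcn without Akt-LEC 2 or RACVEC 3 (up to 0.103). In 5 genes, these 2 together with Cldn5, Esam and Jam2, every RACVEC library was below every Akt-LEC library, against 7.68% of all genes. Cldn5 was at -7.87 ± 1.84 (SE, limma adjusted p = 0.0882), Esam at -4.24 ± 1.09 (SE, limma adjusted p = 0.135) and Jam2 at -5.51 ± 2.10 (SE, limma adjusted p = 0.306). For Cdh5, F11r and Tjp1 the differences were -0.67 (95% interval -1.69 to 0.34), -0.51 (-1.91 to 0.89) and -0.41 (-1.22 to 0.40). Akt-LECs carried the active Akt, which RACVECs and Sox17-RACVECs did not, and were selected on VE-cadherin and CD31. In the differences of these groups from Akt-LECs, the part of Akt, of cell origin and of the selection cannot be told apart. Akt-RACVECs differed from Akt-LECs in 0 of the 10 by limma, where 0 of the 14964 genes tested were called higher and 1 lower. Cldn5 had an unadjusted p below 0.05 with a log2 fold change below -1, as did 375 of all genes tested. Tjp1 had such a p at a log2 difference of 0.86, short of the limit of 1. The intervals of Akt-RACVECs against Akt-LECs were -0.75 to 3.19 for Pecam1, -1.38 to 3.18 for Esam and -2.93 to 1.27 for Emcn, which leave room for differences of several fold. Cldn5 was at -4.70 ± 1.84 (SE, limma adjusted p = 0.443), and at -7.92 with an adjusted p of 0.0203 without Akt-RACVEC 2.

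**Figure D4:**
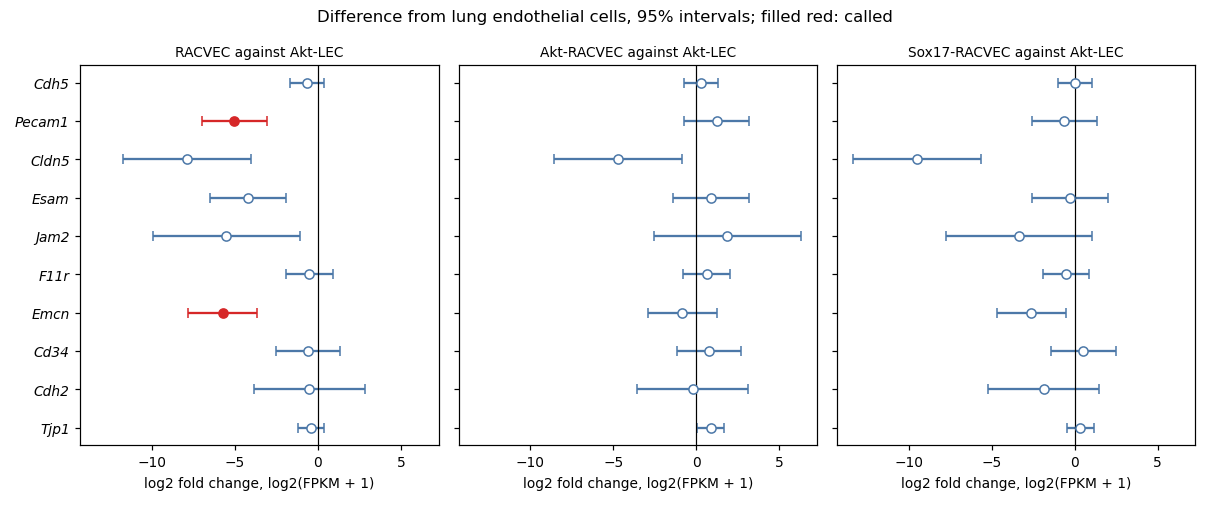
Log2 difference of RACVECs, Akt-RACVECs and Sox17-RACVECs from Akt-LECs for each gene on the log2(FPKM + 1) scale, with 95% intervals from the limma fit (3 libraries a group). Pecam1 and Emcn are called lower in RACVECs (filled red), and Cldn5 lies furthest below 0 in all 3 panels.

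Sox17-RACVECs differed from Akt-LECs in 0 of the 10 genes by limma, where 0 of the 14964 genes tested were called higher and 11 lower. Cldn5 and Emcn had an unadjusted p below 0.05 with a log2 fold change below -1, as did 582 of all genes tested. All libraries labelled Sox17-RACVEC were below all Akt-LECs in Cldn5, at -9.48 ± 1.84 (SE, limma adjusted p = 0.0692), and in Emcn, at -2.61 ± 1.00 (SE, limma adjusted p = 0.492), against 6.44% of all genes. Without Sox17-RACVEC 2, Cldn5 and Jam2 were called lower, at -10.06 and -6.98 (limma adjusted p = 0.0292 for both), where 0.515% of all genes were, and Emcn was at -3.39 (adjusted p = 0.171). Pecam1 was at -0.62 with an interval from -2.59 to 1.35, and at -1.61 ± 0.94 (SE, adjusted p = 0.517) without Sox17-RACVEC 2.

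Of the 10 genes, 1 was called higher and 1 lower in cultured against uncultured liver ECs. These were no larger shares than the 14.1% and 12.9% of all genes. In Akt-liver ECs, Cd34 was above its level in LSECs by 3.20 ± 0.93 (SE, limma adjusted p = 0.0120), where 14.1% of all genes were called higher, and the adjusted p was 0.0604 without Akt-liver EC 2. Jam2 was at 54.0, 0.80 and 0.41 FPKM in Akt-liver ECs and at 1228, 895 and 1060 FPKM in LSECs, a difference of -7.67 ± 2.10 (SE, limma adjusted p = 0.00871), where 12.9% of all genes were called lower. Esam was lower and Emcn higher in every Akt-liver EC library, against 24.9% and 27.7% of all genes, at -1.80 ± 1.09 (SE, limma adjusted p = 0.214) and 1.29 ± 1.00 (SE, limma adjusted p = 0.343). LSECs also held between 34830.0 and 38710.0 FPKM of 5 red cell genes and between 2627 and 15470.0 FPKM of 7 hepatocyte genes, where Akt-liver ECs held at most 1.07 and 68.0 FPKM. The leukocyte sum was between 8602 and 14210.0 FPKM in LSECs and between 0 and 1095 FPKM in Akt-liver ECs. The part of these cells, of culture and of Akt in the differences cannot be told apart.

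Of 46 other junction and surface genes, listed by their known place, 45 were tested. In RACVECs against MACs 8 were called higher, against 1.36% of all genes tested. They were the surface genes Cd93 (log2 fold change 7.70), Adgrf5 (5.18), Podxl (5.10), Icam2 (5.07) and Eng (2.98, the TGF-β co-receptor endoglin), the endothelial protocadherin Pcdh12 (2.66), and the junction scaffold genes Cgnl1 (2.28) and Afdn (1.53), with limma adjusted p up to 0.0493. By class, 5 of 10 surface genes, 1 of 10 adherens junction partners, 1 of 6 other cadherins, 1 of 15 tight junction genes and 0 of 4 connexins were called higher. Icam2 was at 46.0, 268 and 76.2 FPKM in RACVECs and 1890.4, 2642 and 3446 FPKM in Akt-RACVECs (4.70 ± 1.00, SE, limma adjusted p = 0.0511). With Sox17 0 of the 45 were called by limma, and 6 had an unadjusted p below 0.05 in the higher direction, against 1.32% of all genes. Without Sox17-RACVEC 2 these counts were 0 and 3, the latter against 1.26% of all genes.

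**Figure D5:**
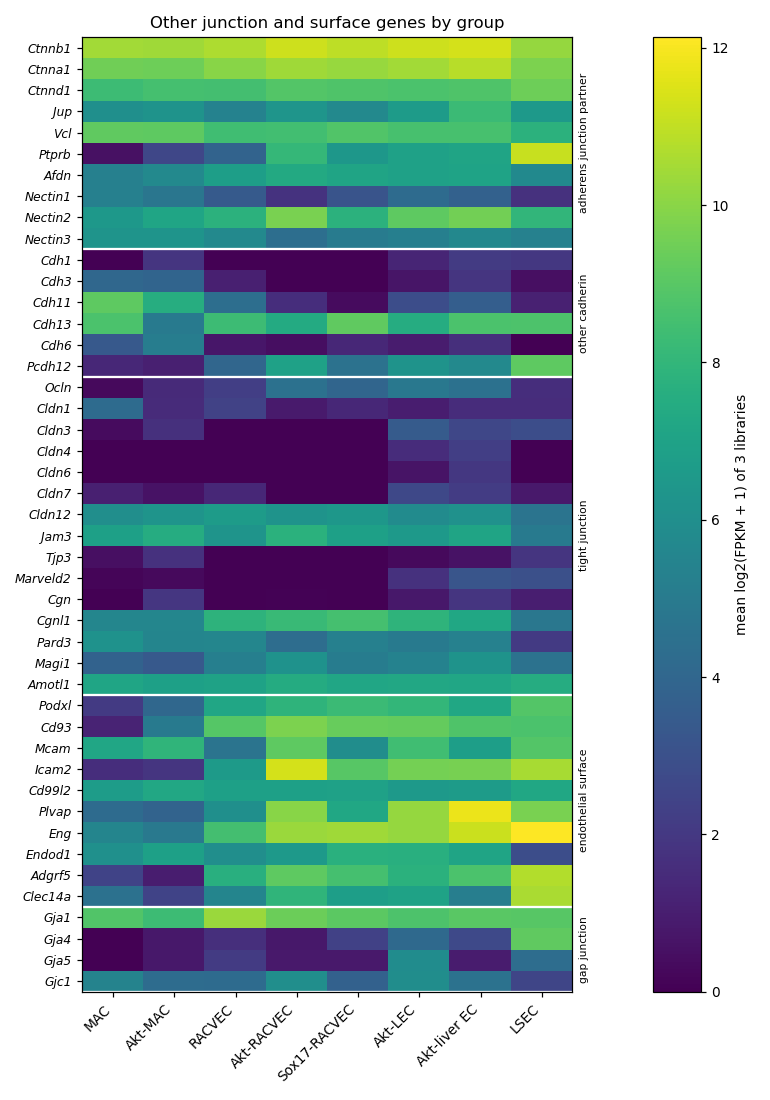
Group means of log2(FPKM + 1) over 3 libraries for 45 of the 46 other junction and surface genes (rows, in 5 classes) in the 8 groups (columns). The catenin genes Ctnnb1, Ctnna1 and Ctnnd1 are high in every group, while Cd93, Icam2 and Adgrf5 are lower in MACs and Akt-MACs than in each of the other groups.

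The cytoplasmic partners of VE-cadherin were present before conversion. Ctnnb1 (β-catenin) was between 1003 and 1741 FPKM in MACs and between 1170.0 and 2048 FPKM in RACVECs, and Ctnnd1 (p120-catenin) between 309 and 328 FPKM in MACs and between 332 and 419 FPKM in RACVECs. Neither passed the test. Ptprb (VE-PTP), the phosphatase that binds VE-cadherin, was at 0, 0.67 and 0.93 FPKM in MACs, 7.08, 17.9 and 18.4 FPKM in RACVECs and 157, 189 and 643 FPKM in Akt-RACVECs (Akt-RACVECs against RACVECs, 4.23 ± 0.96, SE, limma adjusted p = 0.0556). Of the mesenchymal cadherins, Cdh11 was at 1071, 1323 and 121 FPKM in MACs and at 116, 0.65 and 44.9 FPKM in RACVECs. It was at 247, 138 and 184 FPKM in Akt-MACs and at 3.57, 3.97 and 0.23 FPKM in Akt-RACVECs. Between these last 2 groups it was called lower in Akt-RACVECs, where 13.4% of all genes were. The occludin gene Ocln was at most 0.84 FPKM in MACs, between 9.75 and 81.6 FPKM in Akt-LECs and between 1.36 and 2.61 FPKM in the uncultured LSECs. The epithelial claudins Cldn4 and Cldn6 were listed at 0 in every MAC, Akt-MAC and converted library, while the sum of the 8 epithelial genes that include them was higher in every RACVEC library than in the MACs.

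Over all 24 libraries, the members were set side by side by Pearson correlation of log2(FPKM + 1), as a description, since libraries of a group share their origin. Pecam1 and Esam were the closest pair (r = 0.96), followed by Esam with Emcn (0.92) and Pecam1 with Emcn (0.90). Jam2 had no r above 0.36 with another member, and Cdh2 had a negative r with all but Jam2 (0.03). Among 11689 genes, the nearest to Cdh5 were Sox18 (0.98), She (0.97) and Tie1 (0.97). Nearest to Pecam1 were Icam2 (0.96), Ppp1r16b (0.95) and Tie1 (0.95), and nearest to Esam were Tie1 (0.94), Ppp1r16b (0.94) and Icam2 (0.93). Emcn was nearest to Gimap5 (0.93), Lyve1 (0.93) and Eng (0.92), and Cldn5 to Hmcn1 (0.92), Gpr4 (0.88) and Mfng (0.88). The genes nearest to F11r, Cd34, Cdh2, Tjp1 and Jam2 were Sh2d3c (0.93), Gm14137 (0.91), Apcdd1 (0.90), Bcl6b (0.89) and Mlx (0.89).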

How the data were processed

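RNA-seq was available for 24 libraries in 8 groups of 3. The authors mapped paired reads with TopHat to mm9 (printed as mmp9 in the methods) and deposited FPKM values from Cufflinks, with upper-quartile normalization and bias correction, 1 per RefSeq transcript. Read numbers, versions and the annotation release are not given in the sources used here, so the depth is unknown and no counting error or floor could be given. An FPKM of 0 may be a failed estimate. Of 27583 transcripts, 26934 were given a current symbol (RefSeq table of GRCm38.p6), and transcripts were summed per symbol to 22282 genes. FPKM summed to between 1689486 and 2317294 in a library, and 0 pairs of libraries were identical.

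Groups were compared with limma 3.58.1 (R 4.3.3) on log2(FPKM + 1), in 1 fit of 8 groups with a trend, two-sided, with Benjamini-Hochberg adjustment over the 14964 genes whose mean FPKM reached 1. The procedure was tested on simulated data with normal errors and, for each gene, the same spread in all groups. Groups with a single high library, as in Cldn5 and Jam2, were not simulated. A fold change on this scale understates changes of low genes. Replicates were separately isolated cultures as far as the methods state it, and for adult ECs the labels name no separate animals, so that p-values measure the spread between these samples. Named were the 10 genes in every comparison, transduced genes, and a fixed list of other junction genes, of which 1 is not reported here. Members and lists were chosen with earlier results of these data known. Alternatives were pseudocounts of 0.1 and 10, no filter, the highest transcript in place of the sum, scaling by the median shift, the groups compared only, a replicate block, the criterion of the study's methods, and leaving out each library. Gene positions are from GENCODE M1. Figures used matplotlib 3.10.9.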

Additional observations from a re-analysis of the deposited data

How the results depend on the processing

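The number of the 10 genes called depended on the fit. For RACVECs against MACs it was 3, and 1 with a pseudocount of 10 or with the 2 groups alone. For Akt-RACVECs against RACVECs it was 2, and 1 with a pseudocount of 0.1, without the filter or after scaling, 0 with the 2 groups alone and 5 under the criterion of the study's methods (no adjustment). For Sox17-RACVECs against MACs it was 8, and 3 with the groups alone and 1 under that criterion, and for Akt-LECs against MACs 8, then 4 and 2. For RACVECs against Akt-LECs it was 2, and 0 with a pseudocount of 0.1 or the groups alone. For Sox17-RACVECs against Akt-LECs it was 0, and 2 under the criterion, and for Akt-liver ECs against LSECs 2, and 4 with the groups alone. The cause was not tested beyond the construction of each alternative, since the groups alone leave fewer libraries to estimate the spread.

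Leaving out 1 library at a time gave 1 to 4 genes for RACVECs against MACs, 0 to 2 for Akt-RACVECs and 0 to 1 for Sox17-RACVECs against RACVECs, 0 to 0 for Akt-MACs against MACs and for the interaction, 7 to 8 for Akt-RACVECs against Akt-MACs and 6 to 8 for Sox17-RACVECs against MACs. It gave 0 to 1 for Sox17-RACVECs against Akt-RACVECs, 6 to 9 for Akt-LECs against MACs, 0 to 2, 0 to 1 and 0 to 2 for RACVECs, Akt-RACVECs and Sox17-RACVECs against Akt-LECs, and 1 to 2 for Akt-liver ECs against LSECs.

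Deviations of libraries with the same replicate number from their group means had correlations between -0.488 and 0.415. Libraries of unlike numbers were not compared. Whether equal numbers share an isolate or a batch is therefore not settled. With the groups alone and the replicate block, 0 genes were called in each of RACVECs against MACs, Akt-RACVECs against RACVECs, Akt-RACVECs against Akt-MACs, Sox17-RACVECs against MACs, Akt-LECs against MACs and RACVECs against Akt-LECs. Over all genes the smallest adjusted p for RACVECs against MACs was then 0.262.

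Directions turned when single libraries were left out: Cldn5 from 0.98 to between -0.24 and 2.19 (RACVECs against MACs) and from 3.17 to between -0.05 and 4.96 (Akt-RACVECs against RACVECs), Cdh2 from 0.31 to between -0.96 and 1.42 in the latter, and Jam2 and F11r in Sox17-RACVECs against RACVECs from 2.15 to between -1.47 and 4.20 and from 0.002 to between -0.73 and 0.52. Cldn5 in Akt-RACVECs against Akt-LECs turned from -4.70 to 0.13 as a ratio of mean FPKM, which Akt-RACVEC 2 dominates.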
